A study of Caenorhabditis elegans with 57 samples.

Results

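The genes described here encode enzymes of lower glycolysis in the nematode Caenorhabditis elegans and were taken by name from the deposited count tables: the aldolases aldo-1 (T05D4.1) and aldo-2 (F01F1.12), the glyceraldehyde-3-phosphate dehydrogenases gpd-2 (K10B3.8) and gpd-3 (K10B3.7), the phosphoglycerate kinase pgk-1 (T03F1.3), the enolase enol-1 (T21B10.2), the pyruvate kinases pyk-1 (F25H5.3) and pyk-2 (ZK593.1), and the lactate dehydrogenase ldh-1 (F13D12.2). They lie on chromosomes I (pgk-1, pyk-1), II (enol-1, ldh-1), III (aldo-1, aldo-2), IV (pyk-2) and X (gpd-2, gpd-3). They are 9 of 45461 genes in the RNA count table and 9 of 45624 genes in the CUT&RUN count table. The set was selected on RNA and CUT&RUN counts across generations, sexes and larvae that were already known, so the folds and adjusted p-values below describe these libraries and lend no pattern independent support.

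The study asked how the history of the sperm genome, with or without the histone mark H3K27me3, is carried into offspring and grandoffspring. RNA was measured in 33 libraries, and H3K27me3 and H3K36me3 were each profiled in 12 CUT&RUN libraries, a method in which a nuclease frees the DNA held by an antibody. In the first cross, offspring of mes-3(bn35) fathers (M+P-) were set against offspring of fathers in which mes-3(bn35) was balanced by hT2-GFP (M+P+). All fathers of that cross also carried him-8(e1489) and were of N2 background, all mothers were fem-2(b245ts) in the CB4856 background, and all offspring were heterozygous for mes-3(bn35), for fem-2(b245ts) and for him-8(e1489). Strains were kept at 20 C, or at 15 C where they carried fem-2, and fem-2 worms meant as mothers were raised at 25 C, at which they become females. Male germlines (4 libraries per group), hermaphrodite germlines (2 per group) and mixed-sex L1 larvae (3 per group) were sampled. In the second cross the fathers carried mes-3(bn199) on a chromosome with the tagged allele glh-1[sams24[glh-1::GFP::3xflag]), homozygous for M+P- and over hT2-GFP for M+P+, with fem-2(b245ts) in fathers, mothers and offspring alike. Hermaphrodite germlines of its F1 were sampled (3 libraries per group), and so were germlines of F2 hermaphrodites of the GM+GP- line (3 libraries), whose mothers had the F1 genotype and for which the labels name no father. Germlines of mes-3(bn35); him-8(e1489) males with mes-3(bn35)/hT2-GFP mothers (mes-3 fathers below) were compared with those of him-8(e1489) males (3 libraries each). CUT&RUN covered the same hermaphrodite germline groups and him-8 males, each group having 2 libraries for a mark. An RNA germline library pooled the part distal to the bend from 30 to 50 gonads of day 1 adults (the labels state no such number for CUT&RUN), and an L1 library pooled about 100 newly hatched larvae. The labels call replicates biological without saying whether they came from separate crosses, so the p-values measure the spread between these pools.

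In glycolysis, aldolase splits the doubly phosphorylated sugar into triose phosphates, glyceraldehyde-3-phosphate dehydrogenase and phosphoglycerate kinase oxidise the triose and yield ATP, enolase forms phosphoenolpyruvate, pyruvate kinase turns that into pyruvate with more ATP, and lactate dehydrogenase interconverts pyruvate and lactate. Worms have several gene copies for some of these steps, and gpd-2 and gpd-3 lie on the X chromosome in an operon with mai-1, a gene for an ATPase inhibitor-like protein. MES-3 is a subunit of the worm PRC2 complex, which places H3K27me3. In the worm germline, H3K27me3 is known to mark repressed genes and much of the X chromosome, whereas H3K36me3 marks genes that are transcribed there.

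RNA libraries held 5706650 to 19191934 counts, H3K27me3 libraries 2797547 to 25714782 and H3K36me3 libraries 1701400 to 41980395. Levels below, also for CUT&RUN, are CPM, a gene's counts scaled to a fixed library total, listed in replicate order. Replicate 3 of F1 M+P- stood apart. Of 5369 genes at 10 CPM or more in every other second-cross library, 757 had 0 counts in it, among them 204 of 204 X-linked genes. It was left out of the fits and group means. In the other 26 germline libraries all 20 germline markers had counts, summing to 8330 to 12471 CPM, against 249 to 327 CPM in L1 larvae. In the library left out aldo-1 read 4.77 CPM, ldh-1 46.1 CPM and pyk-2 0.144 CPM, and gpd-3 had 0 counts. RNA of mes-3 itself was 41.9, 35.2 and 20.4 CPM in mes-3 fathers and 46.5, 40.5 and 38.8 CPM in him-8 fathers, and the groups overlapped (log2 fold change -0.42 ± 0.23, edgeR adjusted p = 0.332). A transcript count does not tell whether the mutant allele makes working protein.

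The second glyceraldehyde-3-phosphate dehydrogenase gene of the operon, gpd-2, had 0 counts in all 33 RNA and all 24 CUT&RUN libraries. It is near-identical to gpd-3, and the sources used here do not say how reads that match both were counted. The counts listed under gpd-3 are therefore uncertain as a measure of gpd-3 alone, and the same caution applies to the near-identical gpd-1 and gpd-4. That leaves 8 genes with values.

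Most of the pathway was abundant in germlines, and the gene copies of a step differed widely. On the per-length scale of the authors' deposited table (RPKM, 1 value per group), M+P+ hermaphrodite germlines of the first cross had enol-1 at 387, aldo-2 at 356, pgk-1 at 153 and pyk-1 at 151, ranks at percentiles 99.0, 98.9, 96.7 and 96.6 of all genes. The other members were lower in the authors' deposited table for the same germlines, with ldh-1 at 56.1, aldo-1 at 16.8, gpd-3 at 10.02 and pyk-2 at 0.129 RPKM. So aldo-2 and pyk-1 were the abundant aldolase and pyruvate kinase there. M+P+ male germlines had aldo-2 at 229, enol-1 at 221 and pgk-1 at 158 RPKM in the authors' deposited table, against pyk-1 at 53.5, ldh-1 at 22.4, gpd-3 at 19.9, aldo-1 at 11.05 and pyk-2 at 0.759. In M+P+ L1 larvae the order changed: in the authors' deposited table aldo-2 stood at 710, gpd-3 at 694, aldo-1 at 448, enol-1 at 418, ldh-1 at 337, pgk-1 at 191, pyk-1 at 122 and pyk-2 at 51.8 RPKM, every one at or above percentile 90.03. These group values carry no error, so neighbours such as aldo-2 and gpd-3 in larvae or pgk-1 and pyk-1 in hermaphrodite germlines cannot be placed in order by them.

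**Figure D1:**
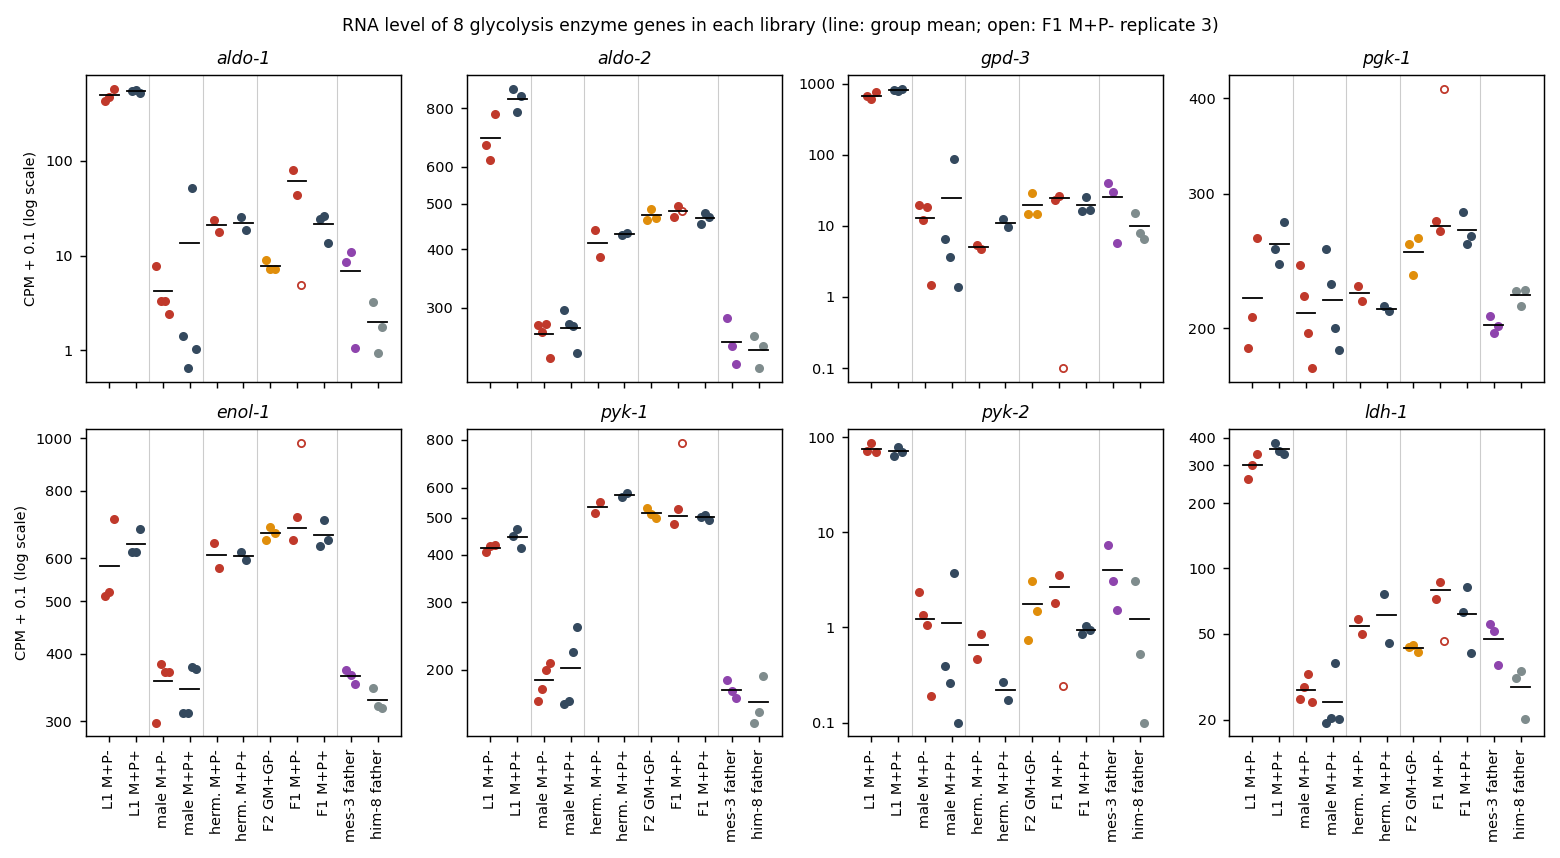
RNA level of 8 glycolysis enzyme genes in each of 33 libraries, as CPM plus 0.1 on a log axis, 1 panel per gene with its own scale; points are libraries, short lines are group means and the open point is F1 M+P- replicate 3, which no mean includes. L1 larvae stand far above all germlines for aldo-1, gpd-3, pyk-2 and ldh-1, while pgk-1 stays between 177 and 284 CPM in every library with a filled point.

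Newly hatched larvae had far more RNA of aldo-1, gpd-3, pyk-2 and ldh-1 than hermaphrodite germlines with the same M+P+ history, while enol-1 and pyk-1 did not pass the test. For gpd-3 the larvae had 812, 803 and 859 CPM and the germlines 12.4 and 9.53 CPM (log2 fold change 6.45 ± 0.19, edgeR adjusted p = 2.88e-07). The aldolase aldo-1 was at 543, 553 and 526 CPM in larvae and at 25.1 and 18.3 CPM in germlines (4.86 ± 0.18, edgeR adjusted p = 6.03e-07). The groups were far apart for both genes.

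For pyk-2, 3983 reads in 3 larval libraries stood against 3 reads in 2 germline libraries, a ratio of 599 after division by library totals (exact 95% interval 205 to 2906, counting error only). The log2 change of ldh-1 was 2.78 ± 0.23 (379, 347 and 338 CPM in larvae, 75.9 and 45.3 CPM in germlines) and that of aldo-2 was 1.18 ± 0.13, with edgeR adjusted p of 2.01e-05 and 0.000109. The phosphoglycerate kinase pgk-1 rose least, by 0.50 ± 0.13 (257 ± 16.5 CPM in larvae, n = 3, and 212 ± 2.25 CPM in germlines, n = 2, SD; edgeR adjusted p = 0.00964), and fell short of the threshold when libraries were scaled by their totals (0.28, edgeR adjusted p = 0.0666) or without germline replicate 1 or 2 (edgeR adjusted p = 0.0954 and 0.0699). The values of enol-1 (638 ± 37.4 and 606 ± 14.7 CPM, edgeR adjusted p = 0.0565) and pyk-1 (444 ± 25.2 and 574 ± 10.9 CPM, edgeR adjusted p = 0.258) did not pass; the values of pyk-1 did not overlap, and it was called lower in larvae with RLE factors (-0.29, edgeR adjusted p = 0.0472), library totals (-0.37, 0.0164) or DESeq2 (-0.29, 0.0113). Thus 6 of 8 tested genes were higher, in a comparison that called 83.2% of all tested genes and 54.3% as higher, so the count is near the background. Their median change was 1.98, against 2.69 for all genes. Of the 6, pyk-2 passed the filter on counts through its larval libraries alone, so its call adds no weight to the count. Body muscle markers summed to 34446 to 38411 CPM in these larvae and 802 to 828 CPM in the germlines, and their part in the result was not tested. In bulk samples like these, fewer cells of a type and less RNA per cell cannot be told apart.

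Of 14 other glycolysis and gluconeogenesis genes tested, 9 were higher in larvae and 3 lower. The phosphoenolpyruvate carboxykinase pck-1, which starts gluconeogenesis from oxaloacetate, was at 1039 ± 15.6 CPM in larvae and 0.806 ± 0.297 CPM in germlines (log2 fold change 10.56, edgeR adjusted p = 2.29e-07). The other dehydrogenase genes went the other way: gpd-4 was at 11.3 ± 2.07 CPM in larvae and 433 ± 18.2 CPM in germlines (-5.05), and gpd-1 at 17.5 ± 9.25 and 480 ± 18.8 CPM (-4.57). Both thus changed opposite to gpd-3, within the uncertainty that near-identical copies bring. The phosphofructokinase pfk-1.1, an early control point of glycolysis, rose by 3.10.

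Male germlines had less RNA than hermaphrodite germlines for 4 of 7 tested genes, again with M+P+ history on both sides. The strongest of them was pyk-1, with 162, 165, 222 and 259 CPM in males and 566 and 581 CPM in hermaphrodites (log2 fold change -1.28 ± 0.23, edgeR adjusted p = 0.00429). For enol-1 the values were 344 ± 38.1 CPM in males (SD, n = 4) and 606 ± 14.7 CPM in hermaphrodites (n = 2), and for aldo-2 272 ± 23.9 and 431 ± 3.59 CPM (-0.59 ± 0.13 and -0.45 ± 0.08, edgeR adjusted p = 0.0091 and 0.00368). The groups did not overlap for any of these.

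The lactate dehydrogenase ldh-1 was at 19.4, 20.3, 36.6 and 20.2 CPM in males and 75.9 and 45.3 CPM in hermaphrodites (-1.11 ± 0.33, edgeR adjusted p = 0.0323); its adjusted p lay above the threshold without male replicate 1, 2 or 4 or hermaphrodite replicate 1 (0.0573 to 0.228). Without male replicate 2 or hermaphrodite replicate 2 enol-1 did not pass (edgeR adjusted p = 0.0521 and 0.0609), nor did aldo-2 without either hermaphrodite library (0.0993 and 0.0553). Of all genes tested in this comparison 52.9% were called, 22.3% as lower. So 4 of 7 is near the share called in either direction and above the share called as lower, in a list too short to read more from. Scaling by library totals shifted the median of all genes by -0.22 (and made 47.5% of calls higher, against 57.8%), and the members' 4 calls stood in that fit as well. For pgk-1 the values were 218 ± 29.8 and 212 ± 2.25 CPM (0.26 ± 0.12, edgeR adjusted p = 0.116), and it was called higher in males with RLE factors (0.27, 0.0449) or DESeq2 (0.27, 0.0171). Levels of aldo-1 and gpd-3 in M+P+ males were decided by replicate 3: without it aldo-1 was far lower in males (-4.28, edgeR adjusted p = 0.000521) and gpd-3 turned from 1.34 to -1.32.

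Among 15 other glycolysis genes 4 were higher in males and 6 lower, where 52.9% of all genes were called and 22.3% were lower. The 2 with the largest change are copies almost absent from hermaphrodite germlines. The phosphofructokinase pfk-1.2 had 181 ± 46.2 CPM in males and 0.196 ± 0.0382 CPM in hermaphrodites, and the carboxykinase pck-3 195 ± 75.3 and 0.0423 ± 0.0598 CPM. Both passed the filter on counts through their male libraries alone, so no p-value is given for them and they add no weight to the count of 4. The hexokinase hxk-2 (29.7 ± 5.77 and 101 ± 2.02 CPM) and the gluconeogenic fructose bisphosphatase fbp-1 (21.4 ± 8.03 and 90.2 ± 7.73 CPM) were lower in males. Sperm markers summed to 4986 to 9383 CPM in these male and 120.7 to 121.6 CPM in these hermaphrodite germlines, and oocyte markers to 1462 to 4058 CPM and 21115 to 22996 CPM; their part was not tested.

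Across the second-cross groups, aldo-1 had 8.93, 7.18 and 7.03 CPM in F2 GM+GP- germlines, 79.4 and 43.2 CPM in F1 M+P- germlines and 24.2, 25.8 and 13.6 CPM in F1 M+P+ germlines. No group overlapped another. F1 M+P- was highest and F2 lowest.

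In F1 worms M+P- germlines had more aldo-1 RNA than M+P+ germlines (61.3 ± 25.6 CPM, n = 2, and 21.2 ± 6.62 CPM, n = 3, SD; log2 fold change 1.53 ± 0.29, edgeR adjusted p = 0.0275). The authors' deposited table gives 1.53 with an adjusted p of 0.0028 for it. It was 1 of 8 tested members called, in a comparison that called 3.16% of all tested genes and 2.19% as higher. The result rested on single libraries: without M+P- replicate 1 the change was 0.94 (edgeR adjusted p = 0.121), without M+P+ replicate 3 it was 1.28 (0.104), and with M+P- replicate 3 included it was 0.99 (0.917). The other 7 were not called. The low-level kinase pyk-2 had 1.69 and 3.49 CPM in M+P- and 0.753, 0.934 and 0.831 CPM in M+P+. It passed the filter on counts through its M+P- libraries alone, so no p-value is given for it and its lack of overlap has no weight. The values of ldh-1 overlapped, with 72.5 and 86.4 CPM in M+P- and 62.7, 82.0 and 40.6 CPM in M+P+ (0.35 ± 0.21, edgeR adjusted p = 0.543). The abundant aldo-2, pgk-1, enol-1 and pyk-1 had log2 changes of -0.01 to 0.03 with standard errors of 0.07 to 0.08. Of the 13 other glycolysis genes tested 0 were called by edgeR, with 3 at an unadjusted p under 0.05, namely pfk-1.1, fbp-1 and pck-2.

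Markers of intestine differed in the same libraries. Their 16 genes summed to 753, 1812 and 863 CPM in F2, 1794 and 3070 CPM in F1 M+P- and 660, 1540 and 402 CPM in F1 M+P+, and all 16 had counts in both M+P- libraries. The yolk protein gene vit-6 was at 236, 513 and 252 CPM in F2, 566 and 948 CPM in F1 M+P- and 208, 463 and 113 CPM in F1 M+P+. Muscle markers (23 genes) summed to 854 to 953 CPM in F2, 861 to 907 CPM in M+P- and 775 to 846 CPM in M+P+, with the myosin gene unc-54 at 9.81 to 13.9 CPM in F2, 11.6 to 15.1 CPM in M+P- and 5.09 to 11.9 CPM in M+P+. Hypodermis and cuticle markers (18 genes) summed to 338 to 621 CPM in F2, 435 to 619 CPM in M+P- and 211 to 491 CPM in M+P+. The part of these tissues in the aldo-1 result was not tested.

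**Figure D2:**
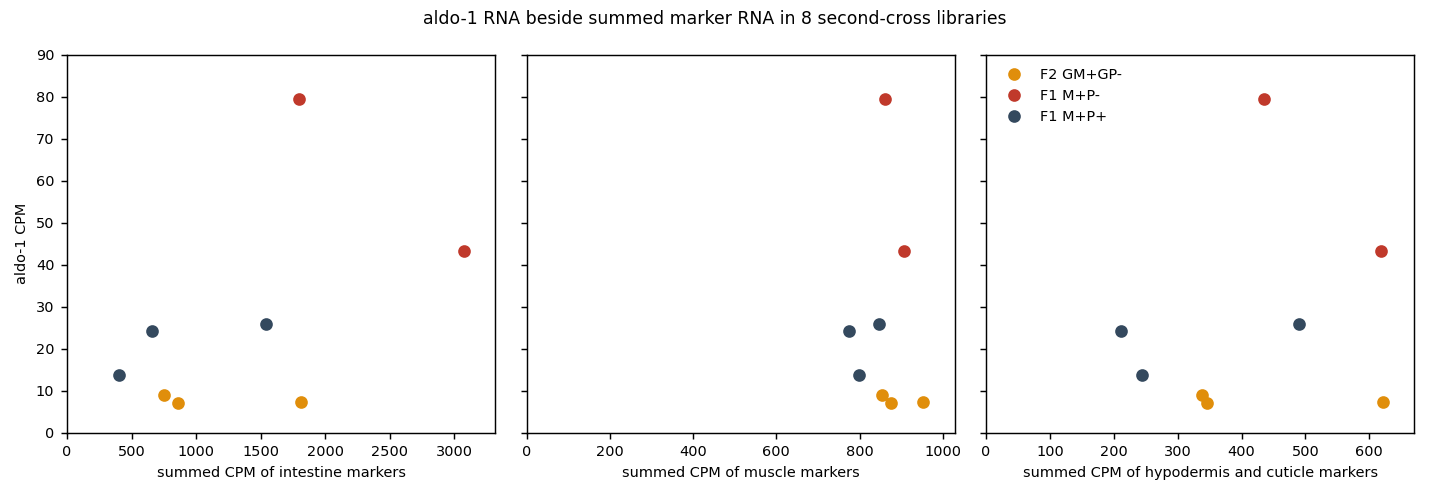
RNA level of aldo-1 (CPM) against the summed CPM of intestine, muscle, and hypodermis and cuticle markers in 8 second-cross libraries (3 F2 GM+GP-, 2 F1 M+P-, 3 F1 M+P+), 1 point per library on linear axes. F2 libraries lie at 7.03 to 8.93 CPM, with intestine sums of 753 to 1812 CPM, and both M+P- libraries lie above all others for aldo-1.

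F2 germlines had less aldo-1 RNA than either F1 group, and less ldh-1 RNA than F1 M+P-. No F2 group with GM+GP+ history was analysed here, so in every F2 over F1 value, for RNA and for the marks, generation, parentage and history change together and cannot be told apart. These comparisons share libraries with each other and with the F1 comparison. Against F1 M+P-, aldo-1 fell by 3.00 ± 0.26 on the log2 scale (7.71 ± 1.05 CPM, n = 3, and 61.3 ± 25.6 CPM, n = 2; edgeR adjusted p = 0.00351). The lactate dehydrogenase ldh-1 was at 43.4, 44.2 and 41.2 CPM in F2 and 72.5 and 86.4 CPM in M+P-, without overlap (-0.88 ± 0.09, edgeR adjusted p = 0.00966). They were 2 of 8 tested members, and 2 of the 4 genes called in the whole comparison (0.0464%, with 0.0348% lower). Without F2 replicate 3 neither passed (aldo-1 -2.94, edgeR adjusted p = 0.0709; ldh-1 -0.85, 0.147), ldh-1 did not pass without M+P- replicate 1 or 2 (0.0558 and 0.0643), and neither passed with M+P- replicate 3 included (-2.47 and -0.61, 0.942 for both).

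Against F1 M+P+, aldo-1 was again lower in F2 (7.71 ± 1.05 and 21.2 ± 6.62 CPM, n = 3 each; -1.49 ± 0.23, edgeR adjusted p = 0.00513), 1 of 7 tested members where 3.21% of all genes were called and 0.663% were lower. It passed with any single library left out, at adjusted p up to 0.0377. With the replicate number as a block the change was -1.46 (edgeR adjusted p = 0.000276), and ldh-1 passed as well (-0.51, 0.0311, against -0.55 ± 0.18 and 0.168 without the block), as it did without M+P+ replicate 3 (-0.76, 0.00785). The other members differed little between F2 and F1 M+P+: aldo-2, enol-1 and pyk-1 had log2 changes between -0.02 and 0.00, and gpd-3 of -0.03 ± 0.26. Of 13 other glycolysis genes 0 were called by edgeR against either F1 group; 3 had an unadjusted p under 0.05 against M+P+ (hxk-2, pfk-1.1 and pck-2) and 0 against M+P-.

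In first-cross hermaphrodite germlines the X-linked gpd-3 was lower in M+P-, with 5.34 and 4.64 CPM, against 12.4 and 9.53 CPM in M+P+. The groups did not overlap (log2 fold change -1.14 ± 0.26, edgeR adjusted p = 0.0136), and gpd-3 was 1 of 7 tested members called, where 9.74% of all genes were and 4.63% were lower. The authors' deposited table has the same change of -1.14 with an adjusted p of 0.223. For second-cross F1 it gives gpd-3 a change of 0.33 with an adjusted p of 0.93. The sign of that change is not settled. The X-linked median in F1 by edgeR was -0.39. In first-cross hermaphrodites the operon neighbour of gpd-3, mai-1, had 0.453 and 0.248 CPM in M+P- and 1.9 and 1.1 CPM in M+P+. These were 8 and 37 reads, a ratio of 0.236 (exact interval 0.095 to 0.515, counting error only). The gene mai-1 passed the filter on counts through its M+P+ libraries alone. No p-value is therefore given for mai-1, and its values add no weight to the call on gpd-3. The X chromosome as a whole went down in this comparison: 37.9% of its 820 tested genes were lower in M+P- (median -0.71), against 1.03% on other chromosomes, so the call on gpd-3 is a common one for its chromosome. It missed the threshold without M+P- replicate 1 or 2 (edgeR adjusted p = 0.0522 and 0.0518) or without M+P+ replicate 1 (-0.97, 0.123).

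No autosomal member was called there. The enolase enol-1 had 641 and 576 CPM in M+P- and 616 and 595 CPM in M+P+, and aldo-1, which differed in the second cross, had 23.9 and 17.8 CPM and 25.1 and 18.3 CPM (-0.06 ± 0.19, edgeR adjusted p = 0.944). The low-level pyk-2 did not pass the filter on counts, with 13 reads in M+P- and 3 in M+P+ (ratio 4.73, exact 95% interval 1.3 to 25.9, counting error only). Of 13 other glycolysis genes 3 were lower in M+P- and 0 higher: pfk-1.1 (31.7 ± 1.49 and 58.0 ± 10.8 CPM; -0.87, edgeR adjusted p = 0.000734), pck-2 (136 ± 5.01 and 170 ± 18.8 CPM; -0.32, 0.0149) and fbp-1 (72.7 ± 0.245 and 90.2 ± 7.73 CPM; -0.31, 0.0301). Of these pfk-1.1 is X-linked. Intestine markers were higher in M+P- for 9 of 10 tested genes, summing to 86.4 to 256 CPM and 37.5 to 55.9 CPM, and their part was not tested.

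In first-cross male germlines no member was called by edgeR or DESeq2 (0 of 8, and 0 at an unadjusted p under 0.05), in a comparison that called 0.49% of all genes. Values of aldo-1 were 7.62, 3.25, 3.18 and 2.29 CPM in M+P- and 1.31, 0.551, 51.4 and 0.945 CPM in M+P+, and those of gpd-3 19.5, 12, 18.5 and 1.38 CPM and 6.38, 3.54, 86.2 and 1.29 CPM. In M+P+ replicate 3 muscle markers summed to 4475 CPM, against 454 to 576 CPM in the other M+P+ libraries, and unc-54 was at 1094 CPM, against 1.03 to 3.92 CPM; the M+P- libraries had muscle sums of 562 to 1071 CPM and unc-54 at 3.39 to 97.2 CPM. Markers of other tissues were high in that M+P+ library too, against the other M+P+ libraries: hypodermis and cuticle 1097 CPM against 40.4 to 123, intestine 348 against 2.66 to 54.2, neuron 240 against 64.3 to 95.4 and somatic gonad 340.1 against 110.5 to 132 CPM. Without that library aldo-1 was higher in M+P- by 2.07, where it was lower by -1.79 ± 1.42 with it, so the sign rests on 1 library. Members with high germline levels overlapped: pyk-1 had 188 ± 19.8 CPM in M+P- and 202 ± 47 CPM in M+P+, and aldo-2 263 ± 19.8 and 272 ± 23.9 CPM (SD, n = 4 each).

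In L1 larvae the log2 changes of all 8 tested members, M+P- over M+P+, were -0.39 to -0.02 with a median of -0.28 (0.03 for all genes), and none was called by edgeR or DESeq2 (0 of 8, with 2 at an unadjusted p under 0.05; 0.00684% of all genes called). Values did not overlap for aldo-2 (669, 621 and 780 CPM in M+P-, 882, 787 and 849 CPM in M+P+; edgeR adjusted p = 0.661), for gpd-3 (672, 608 and 765, against 812, 803 and 859 CPM; 0.66) and for ldh-1 (259, 301 and 337.6, against 379, 347 and 337.7 CPM; 0.752). The other members overlapped. The members' signs are not independent of each other, since they share libraries: muscle markers summed to 30465 to 32524 CPM in M+P- and 34446 to 38411 CPM in M+P+, and their part was not tested. When libraries were scaled by totals the median of all genes moved up by 0.11 and the change of aldo-2 became -0.28.

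Between tissues the effect of history was also tested as a difference of changes. In those 3 tests (male minus hermaphrodite, L1 minus hermaphrodite, L1 minus male) edgeR called 0 members, with 0%, 0.0468% and 0.135% of 17100 genes called. The widest, for aldo-1 between males and hermaphrodites, was -1.95 ± 1.86, and turned to 2.34 without M+P+ male replicate 3.

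In the fathers themselves edgeR and DESeq2 called 0 of 8 tested members (2 at an unadjusted p under 0.05), where 8.33% of all genes were called. The lowest adjusted p was that of ldh-1, with 55.1, 51.2 and 35.7 CPM in mes-3 fathers and 31, 33.7 and 20.2 CPM in him-8 fathers, without overlap (log2 fold change 0.69 ± 0.23, edgeR adjusted p = 0.12). The low-level copies varied strongly between libraries: aldo-1 had 8.48, 10.9 and 0.956 CPM in mes-3 and 3.10, 0.846 and 1.67 CPM in him-8 fathers (1.79 ± 0.84, edgeR adjusted p = 0.258), and gpd-3 40.7, 29.6 and 5.73, against 15.1, 7.90 and 6.38 CPM (1.32 ± 0.64, 0.268). In both, replicate 3 of the mes-3 fathers lay within the him-8 range or below it. Muscle markers summed to 685 to 1113 CPM in mes-3 and 596 to 784 CPM in him-8 fathers, with 4 of 21 tested higher, and neuron markers to 115 to 162 and 86.3 to 101 CPM, with 3 of 9 higher; their part was not tested. The other 15 glycolysis genes had 0 calls by edgeR and 5 at an unadjusted p under 0.05.

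**Figure D3:**
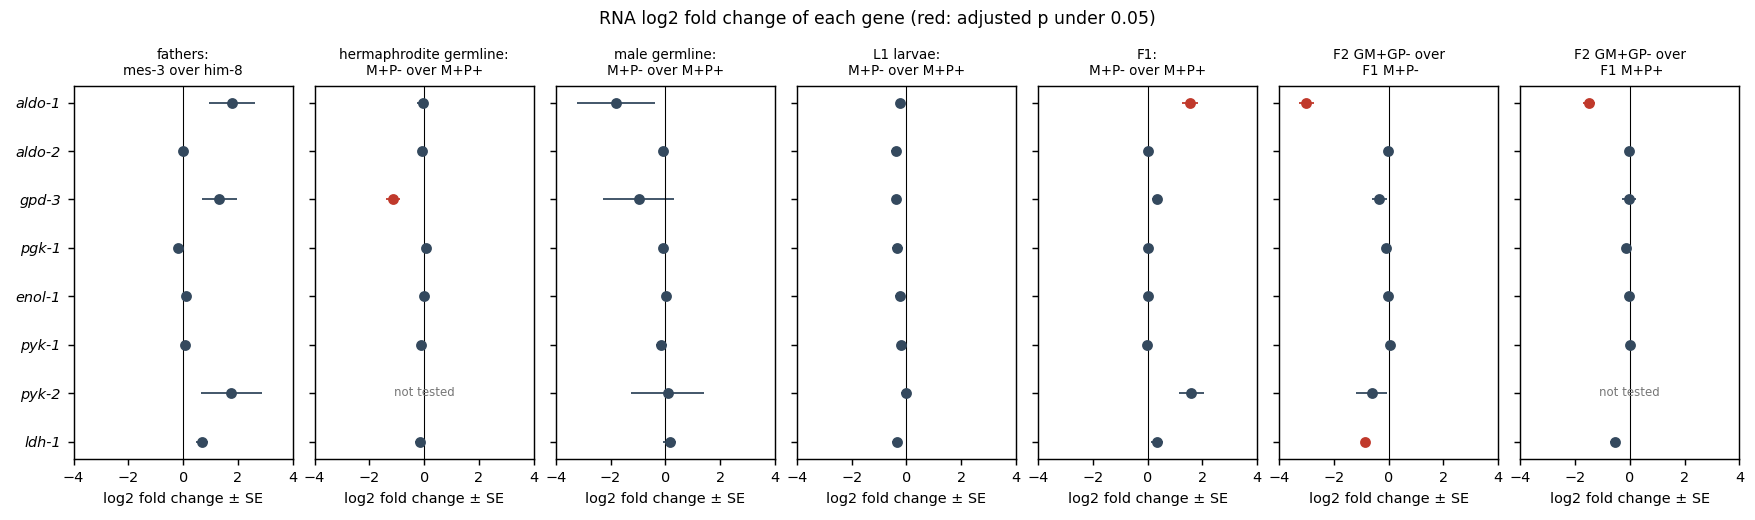
RNA log2 fold change with its standard error for each of 8 genes in 7 comparisons by history or generation, 1 panel per comparison with the tested group over the other; red points have an edgeR adjusted p under 0.05. Red points are gpd-3 in first-cross hermaphrodites, aldo-1 in the 3 second-cross panels and ldh-1 in F2 over F1 M+P-; pyk-2 was below the count filter in 2 panels.

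The members fell into separate chromatin states in hermaphrodite germlines. The authors deposited a z-score per gene and library for each mark, and a percentile below is a gene's rank by that score among 20258 genes in a library, given as the lowest, median and highest of 10 libraries. The abundant autosomal enzymes had low H3K27me3 and high H3K36me3: aldo-2 lay at percentiles 5.69, 11.2 and 16.7 for H3K27me3 and at 80.8, 86.6 and 99.2 for H3K36me3. For pgk-1 they were 5.15, 10.5 and 18.97, against 86.4, 92.0 and 98.5.

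The same held for enol-1 (15.0, 18.7 and 23.9, against 85.7, 89.4 and 99.3), for pyk-1 (10.96, 14.2 and 20.2, against 84.7, 88.4 and 90.8) and for ldh-1 (13.49, 22.8 and 27.5, against 73.4, 80.7 and 93.5). The copies with little germline RNA differed from these. X-linked gpd-3 had H3K27me3 at 54.2, 93.1 and 97.9 and H3K36me3 at 6.30, 23.9 and 59.4, while aldo-1 (48.3, 56.4 and 74.8, against 21.9, 47.1 and 70.2) and pyk-2 (43.3, 57.4 and 69.8, against 7.81, 38.6 and 45.3) were near the middle for H3K27me3. In no library did the H3K27me3 percentiles of these 3 copies overlap those of the 5 abundant genes. The scores of gpd-2, with 0 reads, have no meaning here.

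**Figure D4:**
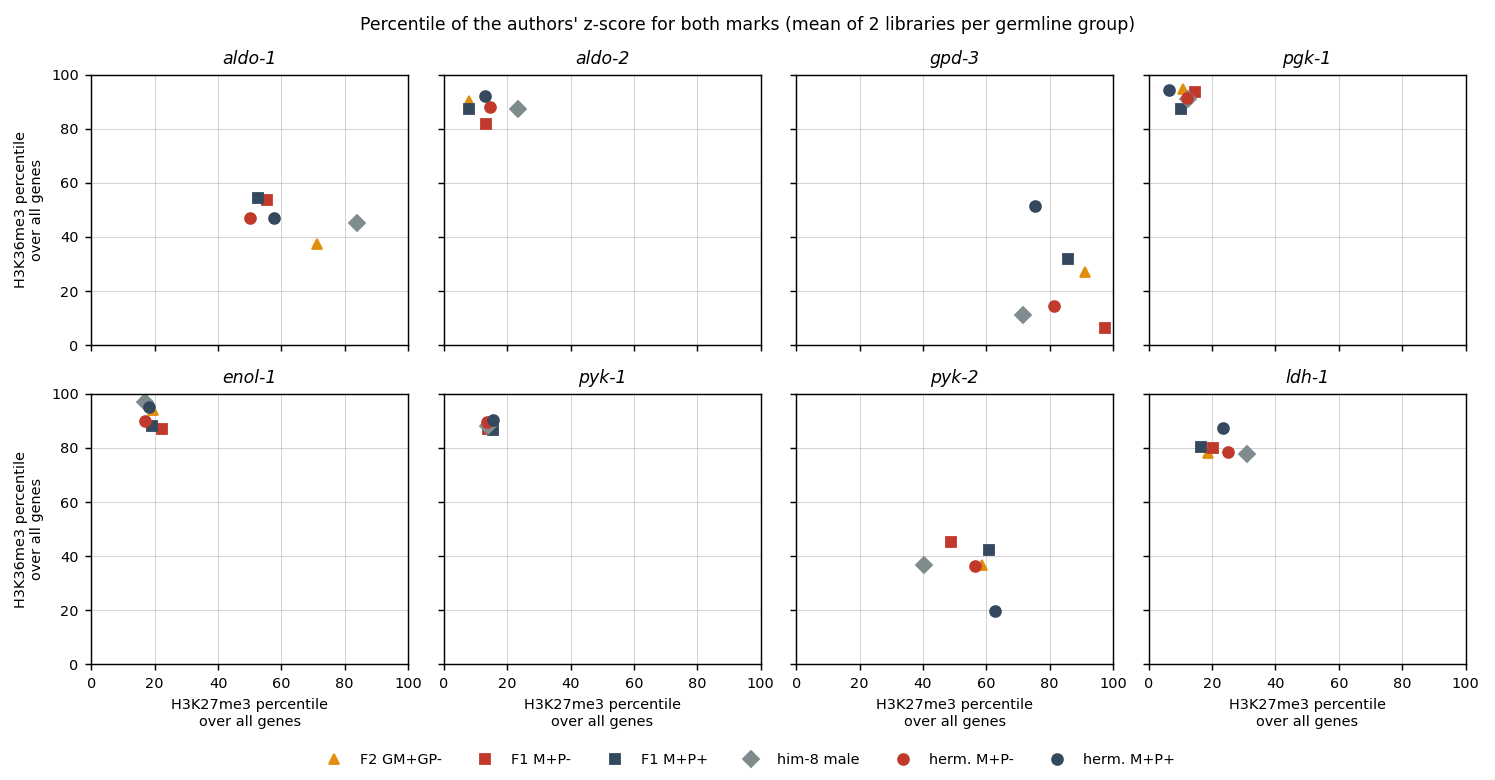
Percentile over all genes of the authors' z-score for H3K27me3 (horizontal axis) and H3K36me3 (vertical axis), mean of 2 libraries, for 6 germline groups and 8 genes in 1 panel each. Points of aldo-2, pgk-1, enol-1, pyk-1 and ldh-1 sit at the upper left, gpd-3 at the right and aldo-1 and pyk-2 near the centre.

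History in the F1 left the members' H3K27me3 uncalled. In first-cross hermaphrodites and in second-cross F1, edgeR and DESeq2 called 0 of 8 members (0 at an unadjusted p under 0.05) between M+P- and M+P+, and edgeR called 0% of all genes in either. For aldo-1, the gene whose RNA differed in F1, H3K27me3 was 31.8 and 28.9 CPM in F1 M+P- and 29.6 and 30.5 CPM in F1 M+P+ (log2 change 0.03 ± 0.19, edgeR adjusted p = 1). For gpd-3, whose RNA differed in the first cross, it was 38.7 and 31.3 CPM in M+P- and 36.1 and 27.9 CPM in M+P+ (0.08 ± 0.23, edgeR adjusted p = 1). Both pairs overlapped.

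In F2 germlines H3K27me3 reads over pyk-1 were fewer than in F1. The gene ranks low for this mark, at percentiles 10.96 to 20.2 in the 10 hermaphrodite libraries, as does aldo-2 at 5.69 to 16.7. How much of their reads is background was not tested. Reads over pyk-1 were 37.9 and 48.4 CPM in F2, 54.4 and 76 CPM in F1 M+P- and 76.5 and 61.5 CPM in F1 M+P+. F2 lay below both. Against F1 M+P+ the log2 change was -0.68 ± 0.15 (edgeR adjusted p = 0.00489), the single call among 8 members where 10.6% of all genes were called and 9.91% were lower. It did not pass without F1 M+P+ replicate 1 (-0.51, edgeR adjusted p = 0.0666). The values of aldo-2, pgk-1, enol-1 and ldh-1 were also lower without overlap, by 0.59 to 0.78, with edgeR adjusted p of 0.0616 to 0.185. The share of all genes without overlap was not counted, and separation of so few libraries is weak evidence. Against F1 M+P-, pyk-1 (-0.64 ± 0.19, edgeR adjusted p = 0.0376) and aldo-2 (-1.05 ± 0.31, 0.0414) were called, where 6.16% of genes were and 6.13% were lower, but both calls were lost with DESeq2 (0.059 and 0.0752), with RLE factors (0.0941 and 0.101) and with library totals (0.0677 and 0.0674).

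Both aldo-2 and pyk-1 also lost the call against F1 M+P- without F2 replicate 1 (log2 changes -0.70 and -0.46) or F1 M+P- replicate 2 (-0.63 and -0.34). Without F2 replicate 2, pyk-1 lost it as well (-0.81). Each of these fits leaves 1 library in a group. For copies with higher H3K27me3 values differed in sign or overlapped: aldo-1 had 39.0 and 37.2 CPM in F2 and 29.6 and 30.5 CPM in F1 M+P+ (0.34 ± 0.16, edgeR adjusted p = 0.203), and pyk-2 57.7 and 72.1 CPM, against 63.2 and 60.8 CPM. Of 15 other glycolysis genes tested against F1 M+P+, 7 were lower, led by gpi-1 (-0.92), fbp-1 (-0.83), ipgm-1 (-0.81) and tpi-1 (-0.76), and pck-1 was higher (0.47). Against F1 M+P-, gpi-1 (-1.0) and fbp-1 (-0.95) were lower. Of 3930 tested X-linked genes 0 were lower against F1 M+P+ by edgeR, where 2881 of 25143 genes on other chromosomes were.

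Between sexes, H3K27me3 reads over 4 of the abundant members were more frequent in him-8 male germlines than in first-cross M+P+ hermaphrodite germlines, a comparison in which genotype, cross and sex change together and cannot be told apart. It called aldo-2 (11.8 and 23.0 CPM in males, 5.82 and 3.89 CPM in hermaphrodites; 1.75 ± 0.48, edgeR adjusted p = 0.0265), pgk-1 (6.43 and 10.9, against 3.38 and 1.56 CPM; 1.73 ± 0.54, 0.0473), pyk-1 (45.0 and 59.0, against 29.6 and 21.2 CPM; 0.93 ± 0.27, 0.0338) and ldh-1 (15.4 and 18.5, against 6.69 and 3.93 CPM; 1.57 ± 0.45, 0.0353). These are 4 of 8 tested members, all higher, with 14% of all genes called and 5.13% higher. With library totals for scaling, 53.8% of calls over all genes were higher, against 36.7%, and the 4 members were called again. The him-8 libraries held 2797547 and 4606666 counts, against 17181699 and 22378255, and pgk-1 had 18 and 50 reads in him-8. By the authors' z-score aldo-2 (percentiles 20.99 to 25.74) and ldh-1 (30.21 to 31.57) lay higher in males than in the 10 hermaphrodite libraries. The percentiles of pgk-1 (11.79 to 13.11) lay within its hermaphrodite range of 5.15 to 18.97. Those of pyk-1 (10.88 to 17.06) went no higher than its range of 10.96 to 20.16.

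Without him-8 replicate 2 no member was called (edgeR adjusted p of 0.2 to 0.44 for the 4), and without hermaphrodite replicate 2 none of these 4 was (0.116 to 0.395), while gpd-3 then passed as lower (-1.22, edgeR adjusted p = 0.0285). With RLE factors pgk-1 was not called (0.0607). The X-linked gpd-3 had 22.2 and 12.4 CPM in males and 36.1 and 27.9 CPM in hermaphrodites (-1.03 ± 0.34, edgeR adjusted p = 0.0626), and 62.1% of X-linked genes were lower. Males have a single X chromosome, so DNA dose differs there. Of 15 other glycolysis genes, hxk-2 was higher in males (0.89) and X-linked pfk-1.1 lower (-1.13).

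For H3K36me3, edgeR and DESeq2 called 0 of 8 members in each of 5 comparisons, in which 0% (first-cross hermaphrodites by history), 0.121% (F1 by history), 0% (F2 over F1 M+P+), 0.312% (F2 over F1 M+P-) and 0% (him-8 males over hermaphrodites) of all genes were called by edgeR. An unadjusted p under 0.05 was reached by 1 member, gpd-3, in F1 by history and in F2 over F1 M+P-, and by 0 in the other 3. It had 8.31 and 14.4 CPM in F2, 2.20 and 3.20 CPM in F1 M+P- and 7.58 and 6.88 CPM in F1 M+P+, so both F1 M+P- libraries were lowest. The log2 change was 1.87 ± 0.55 for F2 over F1 M+P- (edgeR adjusted p = 0.0762) and -1.47 ± 0.51 for F1 M+P- over F1 M+P+ (0.483). X-linked genes as a whole moved with it: their median was 0.97 for F2 over F1 M+P-, against -0.03 on other chromosomes, with 77 of the 79 calls, and -0.39 for F1 M+P- over F1 M+P+, against 0.04. Replicate 2 of first-cross M+P+ stood apart, with 41980395 counts and with aldo-2 at 190 CPM, against 47.9 to 85.8 CPM in the other 11 libraries. Without it, aldo-1, aldo-2, pgk-1, enol-1, pyk-1 and ldh-1 turned from lower to higher in M+P- (0.07 to 0.31).

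Reads that carry a sequence difference between the parental strains could be assigned to the sperm or oocyte allele in RNA for 1 member in depth. The pyruvate kinase pyk-1, with 4 exonic differences in the authors' deposited table, had 199 to 1099 such RNA reads per library in 26 libraries. The other members had at most 11. The sperm allele supplied more than 50% of pyk-1 reads in 24 of 26 libraries, with group means of 61.3 ± 0.43% in M+P- and 59.1 ± 1.53% in M+P+ hermaphrodite germlines (SD, n = 2 each), 57.8 ± 0.03% in F1 M+P- (n = 2), 59.7 ± 1.53% in F1 M+P+ (n = 3) and 61.0 ± 2.50% in F2 (n = 3). Over all genes the sperm share was 49.4 to 54.1% per library. Whether sequence mapping favours 1 parental strain at pyk-1 was not tested.

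In males the share was 57.6, 50.2, 46.7 and 51.8% in M+P- and 59.5, 57.4, 63.9 and 48.3% in M+P+, and in larvae it was 52.6, 56.0 and 59.5% in M+P- and 50.5, 53.6 and 60.7% in M+P+. M+P- and M+P+ overlapped in both, the highest male and larval libraries lay within or above the hermaphrodite range, and shares were not tested between sexes or stages. History did not move the allele balance of pyk-1 past the threshold in any of 4 RNA tests: the log2 change of sperm over oocyte reads, M+P- over M+P+, was 0.13 ± 0.13 in hermaphrodites, -0.32 ± 0.19 in males, 0.07 ± 0.28 in larvae and -0.11 ± 0.12 in F1 (edgeR adjusted p = 0.909, 0.915, 1 and 0.934). Those tests called 0.407%, 0.283%, 0.0292% and 0.049% of genes.

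In H3K27me3 libraries pyk-1 had 43 to 158 allele reads. Its sperm share was 28.6 and 43.1% in first-cross M+P- and 51.2 and 37.5% in M+P+ (log2 change -0.49 ± 0.54, edgeR adjusted p = 0.769, 1.29% of genes called), and 38.2 and 46.2% in F1 M+P- and 49.5 and 57.4% in F1 M+P+ (-0.62 ± 0.61, 1, 0% called). The means were lower in M+P- in both crosses, with overlap in the first cross and none in F1. Over all genes the H3K27me3 sperm share was lower in M+P- as well, at 49.1 and 45.8% against 52.4 and 52.4% in M+P+ in the first cross, and at 46.6 and 48.8% against 50.3 and 51.7% in F1. With so few reads the exact 95% intervals of single libraries span 28.8 to 48.4% for the first and 38.2 to 54.3% for the second F1 M+P- library. In F2 the share was 52.9 and 43.0%. H3K36me3 reads (230 to 1546 per library) gave log2 changes of -0.23 and 0.14 in the 2 crosses (edgeR adjusted p = 1 for both, 0% of genes called). Reads over ldh-1, 2 to 311 per H3K36me3 library, gave 0.52 ± 1.28 and 0.27 ± 2.1 (edgeR adjusted p = 1 for both).

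**Figure D5:**
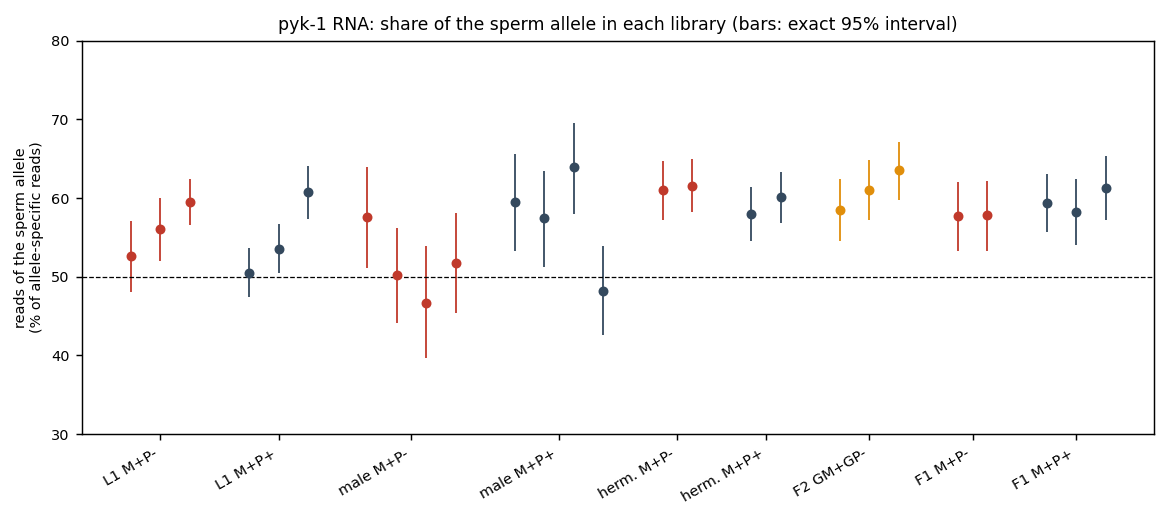
Share of pyk-1 RNA reads from the sperm allele, in percent of reads assigned to an allele, for each of 26 libraries by group, with exact 95% binomial intervals for counting error and a dashed line at 50%. Hermaphrodite germlines of both crosses and both generations lie at 57.8 to 63.5%, while males and larvae spread from 46.7 to 63.9%.

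Over the 11 RNA groups, each member's mean profile of log2(CPM + 1) was set beside those of 8040 genes with a mean of at least 10 CPM, and the gene with the highest Pearson r is named as a description. The groups share tissues, and L1 larvae dominate the range. The closest were etr-1 for pyk-1 (r = 0.997), fipr-21 for pyk-2 (0.997), ccg-1 for gpd-3 (0.991), znf-622 for enol-1 (0.990), spp-10 for aldo-2 (0.989), C33D9.6 for ldh-1 (0.984), rskn-2 for aldo-1 (0.969) and B0250.3 for pgk-1 (0.871). Among the members, enol-1 and pyk-1 were most alike (0.976), followed by gpd-3 and pyk-2 (0.973) and aldo-1 and ldh-1 (0.951).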

How the data were processed

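The members and gene lists were chosen with earlier results of these data known. The authors deposited raw read counts per gene for RNA and CUT&RUN, counts per parental allele, tables of RPKM, log2 fold changes and adjusted p-values. The z-score of each gene and library for a mark is a score made by the authors and deposited per the file headers; its formula is not stated in them. Per the submitters' processing notes, TopHat2 2.1.1, Bowtie2 2.3.5.1, HTSeq, DESeq, DESeq2 1.22.2 and ce10 were used, with no role stated here. Multimapped reads and strand are not given in the sources used here. Every per-sample column matched a label.

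From the deposited counts, edgeR 4.0.16 (R 4.3.3; TMM, filterByExpr, quasi-likelihood F-test, Benjamini-Hochberg at 0.05 over all genes tested) fitted each comparison on its own libraries, without F1 M+P- replicate 3. The standard error is the log2 fold change divided by the square root of F. Allele counts were tested as allele by history with library as a block, at a mean of 10 or more allele reads. Per library, no 2 libraries of a group held identical counts (0 of 47 pairs). A floor of 3 counts and exact 95% intervals cover counting error only. Names came from RefSeq, which matched 44080 of 45461 genes in the RNA table and 44256 of 45624 in the CUT&RUN table; its build, WBcel235, differs from ce10, so only chromosome names are used.

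Members called by edgeR are named in every comparison, and not every uncalled member is. Other glycolysis genes are given by counts, with up to 4 called ones named by size of change. Values of mes-3 and mai-1 are reported where they bear on a result. How many of all genes had groups without overlap was not counted, so a lack of overlap has no background here. In RNA of F2 against F1 M+P+, the deviations of same-numbered libraries correlated at 0.3, 0.389 and 0.128. They also correlated in other comparisons, as at 0.671 for H3K27me3 in first-cross hermaphrodites and at 0.375 and 0.406 in RNA of F1. Elsewhere the values spread from -0.37 to 0.804. Any pairing thus comes from the data, not the labels, and the block is an alternative in every comparison. Alternatives were DESeq2 1.42.0, RLE factors, library totals, no filter, a replicate block, each library left out in turn, F1 M+P- replicate 3 included and, for alleles, minimums of 5 and 20 reads. The fitting code was tested on simulated data.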

Additional observations from a re-analysis of the deposited data

Results flagged for a closer look

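In 20 sets of a gene and a group of 4 male germline libraries, 6 had 1 library far from the other 3 by Dixon's criterion, which chance alone meets in about 1 in 20 groups. In M+P+ males, replicate 3 was highest for aldo-1 (51.4 CPM, others 0.551 to 1.31), gpd-3 (86.2 CPM, others 1.29 to 6.38), ldh-1 (36.6 CPM, others 19.4 to 20.3) and pyk-2 (3.65 CPM, others 0 to 0.290). The same library had muscle markers at 4475 CPM (others 454 to 576), hypodermis and cuticle markers at 1097 CPM (40.4 to 123), intestine markers at 348 CPM (2.66 to 54.2), neuron markers at 240 CPM (64.3 to 95.4) and somatic gonad markers at 340.1 CPM (110.5 to 132), and their part was not tested. In M+P- males, enol-1 was lowest in replicate 1 (298 CPM, others 371 to 383) and mai-1 highest in replicate 3 (0.481 CPM, others 0 to 0.0769).

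For H3K36me3 over mes-3, groups did not overlap in either cross and differed in opposite directions. The log2 fold change, M+P- over M+P+, was 0.43 in first-cross hermaphrodites (184 ± 16.2 and 124 ± 65.1 CPM, SD, n = 2 each). In the second-cross F1 it was -0.24 (194 ± 18.2 and 221 ± 5.73 CPM, n = 2 each). First-cross M+P+ replicate 2, the library of 41980395 counts that stood apart for this mark, had 77.9 CPM, the lowest of 10 hermaphrodite libraries. The size of the first-cross change rests largely on it. The difference between crosses was not tested.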

How the results depend on the processing

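Of 30 counts of members called, 268 values under alternatives lay within 1.5 times the original and 43 did not. With no filter the count became 2 in fathers, 3 in F1 and 2 in F2 over F1 M+P+, and 4 for H3K27me3 in F2 over F1 M+P+. With a replicate block it became 3 in fathers (2026 genes called, against 739), 2 in F1 (961, against 263), 2 in F2 over F1 M+P+ (634, against 266) and 7 in males over hermaphrodites. For H3K27me3 the block gave 1 in first-cross hermaphrodites (2988 genes, against 0), 2 in F2 over F1 M+P+, 4 in F2 over F1 M+P- and 1 in him-8 males, and for H3K36me3 1 in F2 over F1 M+P-. In every comparison the labels tie same-numbered libraries by their number alone, and whether they belong together was not tested. A crossed block, chosen after seeing the data since deviations correlated at -0.278 and -0.37, gave 6 for H3K27me3 and 0 for H3K36me3 in him-8 males. With F1 M+P- replicate 3 included the count was 0 in F1 and 0 in F2 over F1 M+P-. For H3K27me3 in F2 over F1 M+P- it was 0 with DESeq2, RLE factors or library totals; for H3K36me3 there it was 1 with library totals. With no filter, 1281, 908 and 814 genes were called in fathers, F1 and F2 over F1 M+P+.

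Leaving out 1 library gave 0 to 1 in fathers, first-cross hermaphrodites, F1 and the L1 minus male difference, 1 to 2 in F2 over F1 M+P+, 0 to 2 in F2 over F1 M+P-, 2 to 5 in males over hermaphrodites and 5 to 6 in L1 over hermaphrodites. For H3K27me3 it gave 0 to 3 in both F2 comparisons and 0 to 6 in him-8 males, and for H3K36me3 0 to 6 in first-cross hermaphrodites, 0 to 5 in F2 over F1 M+P+ and 0 to 2 in F2 over F1 M+P-.

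Of the values for single genes, 1065 kept their direction and call, 53 newly passed, 48 no longer passed and 20 changed sign. The last were enol-1 in fathers with no filter (-0.00317); aldo-1 in males with the block (0.93) and by library left out (-2.23 to 2.07); gpd-3 with F1 M+P- replicate 3 in F1 (-0.24) and in F2 over F1 M+P- (0.22); and gpd-3 in males over hermaphrodites with the block (-0.97) and by library left out (-1.32 to 1.74). For H3K36me3, leaving out first-cross M+P+ replicate 1 or 2 gave, in first-cross hermaphrodites, -1.33 to 0.31 for aldo-1, -1.88 to 0.29 for aldo-2, -1.59 to 0.19 for pgk-1, -1.78 to 0.13 for enol-1, -0.91 to 0.082 for pyk-1 and -1.73 to 0.066 for ldh-1, and in him-8 males -1.45 to 0.045 for aldo-1 and -1.54 to 0.12 for ldh-1. In the male minus hermaphrodite difference aldo-1 became 0.90 with the block and spanned -2.5 to 2.34 by library left out, and pyk-2 -2.74 to 0.85; in the L1 minus male difference aldo-1 became -1.15 with the block and spanned -2.57 (adjusted p = 0.019) to 2.27. The cause was not tested.

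Library totals shifted the median of all genes by 0.114 (L1 by history), -0.217 (males over hermaphrodites), -0.214 (L1 over hermaphrodites), 0.112 (H3K27me3, him-8 males), and for H3K36me3 by 0.176 (first cross), 0.257 and 0.174 (F2 over F1 M+P+ and over M+P-). RLE factors shifted it by -0.135 in L1 over hermaphrodites and -0.16 for H3K36me3 in F2 over F1 M+P+. Groups of 2 or 3 libraries and low counts of aldo-1, gpd-3 and pyk-2 in germlines limit these results.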

Other observations

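Neighbouring pathways were read from the same fits by lists of genes. Pyruvate dehydrogenase and citrate cycle genes, which oxidise the pyruvate made by glycolysis, were higher in male than in hermaphrodite M+P+ germlines for 14 of 28 tested and lower for 2, with a median log2 change of 0.78, against 0.08 for all genes; of all 10231 genes tested 3131 were higher and 2286 lower. In L1 larvae over hermaphrodite germlines 19 of them were higher and 6 lower (median 0.76, against 2.69 for all genes, of which 54.3% were higher). Between M+P- and M+P+ the list had 0 calls by edgeR in males, larvae and F1, and in first-cross hermaphrodites 1 was higher and 3 lower.

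Genes of the pentose phosphate and trehalose routes, which draw on the same sugars, were split in males over hermaphrodites (3 higher and 3 lower of 10) and in larvae over hermaphrodites (7 higher and 3 lower of 12). Of 10 hypoxia response genes, 7 were higher and 0 lower in larvae, where 54.3% of all genes were higher, and 0 were higher and 2 lower in males, where 22.3% of all genes were lower. Both shares are near those of all genes. The 2 were egl-9, which encodes the oxygen-sensing hydroxylase, and cysl-2. For H3K27me3 in F2 over F1 M+P+, 9 of 28 citrate cycle genes were lower and 1 higher, where 9.91% of all genes were lower and 10.6% were called.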
